A study of Salvia miltiorrhiza with 5 samples.

Results

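Hairy roots of *Salvia miltiorrhiza* treated for 1 h with methyl jasmonate (MeJA-1h) were compared directly with hairy roots treated for 1 h with yeast extract (YE-1h). This is the only pair of elicitors in the series sampled at the same time, so the comparison needs no untreated control. Of 55588 assembled transcripts (unigenes), 45009 had at least 30 reads in MeJA-1h or YE-1h and were compared, and 10579 were under this minimum. The study's lists of pathway genes, cytochrome P450s, candidate enzymes and transcription factors (TFs), with a few genes of its annotation, name 592 unigenes, of which 548 were over the minimum and 44 under it. Just inside the minimum lay a PLATZ unigene (SmiContig10632) with 28 reads in MeJA-1h and 32 in YE-1h, and just outside it a MYB unigene (c14470_Smj-1h_g1_i1) with 12 reads in MeJA-1h and 29 in YE-1h.

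Both libraries came from shake-flask cultures of hairy roots 40 days old, which had been raised from leaf sections infected with *Agrobacterium* carrying a root-inducing plasmid. MeJA was added as a solution in ethanol, while YE was a crude yeast preparation made by ethanol precipitation, and since no library received ethanol alone the solvent cannot be told apart from MeJA. Each library held RNA mixed from 3 replicate samples, so there was 1 library per elicitor and no difference has a replicate check. The tissue could not be checked against root markers, because no unigene is paired with one.

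MeJA is the volatile ester of jasmonic acid, the hormone with which plants respond to wounding. Jasmonate leads to the breakdown of JAZ repressors of the Tify family, which frees bHLH activators such as MYC2. Yeast extract carries cell wall fragments that plant cells perceive as those of a microbe, and WRKY factors are well known in that response. Hairy roots of this plant make tanshinones, which are diterpenoid quinones, and phenolic acids such as rosmarinic acid and salvianolic acid B. Tanshinones draw on isoprene units of the mevalonate (MVA) pathway in the cytosol and of the methylerythritol phosphate (MEP) pathway in plastids, whereas the phenolic acids draw on phenylalanine and tyrosine.

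The reads counted on unigenes summed to 16070622 in MeJA-1h and 19055712 in YE-1h. Levels are given as RPKM, the reads per kilobase of unigene scaled to the mapped reads of the library, as deposited. A library at 0 reads was set to 3 reads, which was 0.187 RPKM in MeJA-1h and 0.157 RPKM in YE-1h for a unigene of 1 kb. Libraries at 1 or 2 reads kept their deposited values, so some of the largest ratios rest on a level below this. Differences are log2 ratios of the RPKM in MeJA-1h to that in YE-1h, so that a positive value is higher in MeJA-1h. A unigene was called higher in 1 library when the ratio exceeded 2-fold and edgeR's binomTest of the reads gave a false discovery rate (FDR) under 0.01. This test asks whether the reads divide between the libraries beyond counting error. It compares 2 libraries and not 2 treatments, and the 95% intervals given with ratios likewise cover counting error only.

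Over all 45009 unigenes the median log2 ratio was -0.15, with quartiles of -0.53 and 0.18. In MeJA-1h 2930 unigenes (6.51%) were called higher, and in YE-1h 4605 (10.2%), which together made 16.7% of the unigenes compared. Unigenes higher in MeJA-1h made up 38.9% of the calls, but 48.2% with TMM scaling and 49.1% with the size factors of DESeq2, which raised every log2 ratio by 0.13 and 0.14. Signs that are given as turned by TMM scaling also turned with the DESeq2 size factors. The largest differences leaned the other way. Among unigenes called with a difference over 8-fold, 461 were higher in MeJA-1h and 290 higher in YE-1h. Unigenes called higher in MeJA-1h had a median level of 10.9 RPKM in MeJA-1h and 3.04 RPKM in YE-1h. For those higher in YE-1h the medians were 2.60 RPKM in MeJA-1h and 7.81 RPKM in YE-1h. When a coefficient of variation of 0.4 between libraries was assumed in edgeR's exact test, 147 unigenes higher in MeJA-1h and 53 higher in YE-1h were left.

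**Figure D1:**
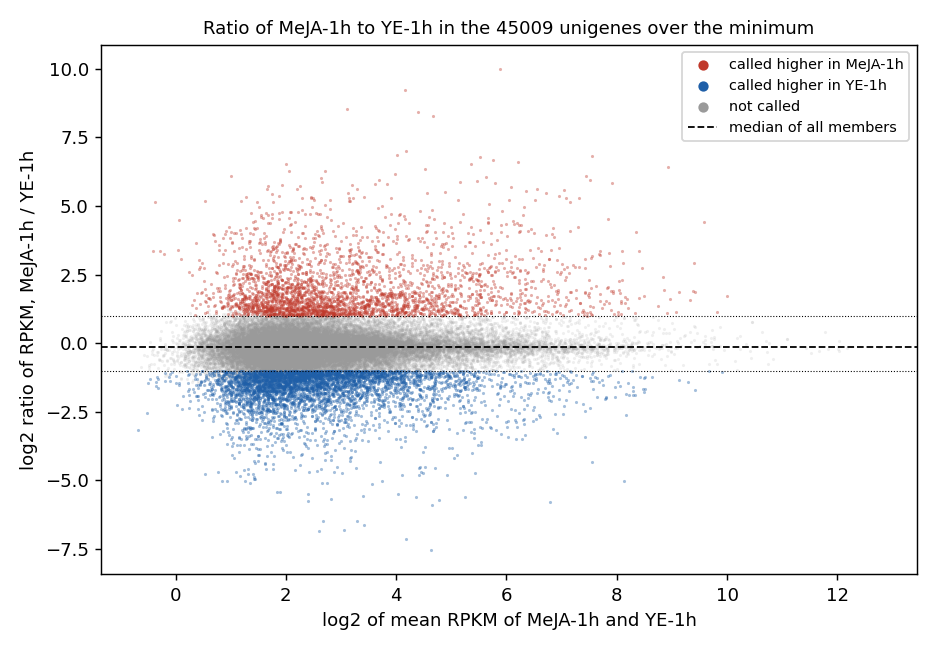
Log2 ratio of RPKM in MeJA-1h to YE-1h (vertical axis) against the log2 of the mean RPKM of both libraries (horizontal axis), 1 point per unigene over the minimum. Red points are the 2930 unigenes called higher in MeJA-1h, blue points the 4605 called higher in YE-1h, the dashed line is the median of -0.15, and the dotted lines mark 2-fold.

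The tanshinone genes did not differ in 1 direction. Of the 66 unigenes listed for this pathway 65 were over the minimum, of which 28 were called higher in YE-1h, 11 higher in MeJA-1h and 26 in neither. The shares called were 43.1% in YE-1h and 16.9% in MeJA-1h, beside 10.2% and 6.51% over all unigenes. The median log2 ratio of the list was -0.85, against -0.15 over all unigenes. How the study chose the unigenes of its pathway lists is not given in the sources used here. All 66 exceeded 2-fold over the control in at least 1 elicited library of the series, so the counts are not taken as independent evidence of a direction. Several unigenes often carry 1 gene name and may share reads, so they were not independent either. With reads summed over each of the 26 names, 5 names were higher in MeJA-1h and 9 in YE-1h.

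Of the 21 unigenes of the MVA pathway 0 were called higher in MeJA-1h and 4 (19.0%) in YE-1h. Over all unigenes the shares were 6.51% and 10.2%. The ratio was below 1 in 15 of the 21. The median log2 ratio was -0.81, which lay 0.66 below that of all unigenes, and 10 of the unigenes carry the name of *PMK*, a kinase with a summed log2 ratio of -0.95. *HMGR2*, a form of the HMG-CoA reductase that commits carbon to the pathway, had 543 RPKM in MeJA-1h and 382 RPKM in YE-1h, a log2 ratio of 0.51. The first enzymes stood at a like level in both libraries. *AACT1*, the acetyl-CoA acetyltransferase, had 804 RPKM in MeJA-1h and 747 RPKM in YE-1h. *HMGS*, which makes HMG-CoA, had 705 RPKM in MeJA-1h and 654 RPKM in YE-1h. *HMGR3* had 241 RPKM in MeJA-1h and 222 RPKM in YE-1h. The kinases that follow had lower ratios. *MK* had 90.6 RPKM in MeJA-1h and 121 RPKM in YE-1h, a log2 ratio of -0.42. The most abundant *PMK* unigene had 413 reads in MeJA-1h and 884 in YE-1h, a log2 ratio of -0.85. Of the 4 calls in the pathway 3 were minor *PMK* unigenes with 46 to 91 reads in YE-1h. *MDC*, the last enzyme, had 301 RPKM in MeJA-1h and 316 RPKM in YE-1h, a log2 ratio of -0.07 that became 0.06 with TMM scaling.

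Of the 18 unigenes of the MEP pathway 12 (66.7%) were called higher in YE-1h and 1 (5.56%) in MeJA-1h. Over all unigenes the shares were 10.2% and 6.51%. With an assumed coefficient of variation of 0.2 between libraries 4 calls higher in YE-1h and 0 higher in MeJA-1h were left. *DXS2*, one of the synthases that feed pyruvate and glyceraldehyde phosphate into the pathway, had 173 RPKM in MeJA-1h and 553 RPKM in YE-1h, a log2 ratio of -1.68 (interval -1.71 to -1.64). *DXS3*, another such synthase, went the opposite way, with 1053 reads in MeJA-1h and 482 in YE-1h, a log2 ratio of 1.37 (interval 1.22 to 1.53). The untreated control at 0 h had 25.1 RPKM of *DXS3*, next to the 25.9 RPKM in MeJA-1h. The other enzymes called were higher in YE-1h. All 4 unigenes of *DXR*, the reductoisomerase, were called, with the most abundant at 26.1 RPKM in MeJA-1h and 62.5 RPKM in YE-1h. All 4 of *MCS* were called too, the most abundant with 8.29 RPKM in MeJA-1h and 21.8 RPKM in YE-1h. *IDS*, the last enzyme, had 52.3 RPKM in MeJA-1h and 134 RPKM in YE-1h, a log2 ratio of -1.36. The abundant unigenes of *CMK* and *HDS1* were not called, at log2 ratios of -0.51 and -0.19.

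Of the 5 unigenes at the steps that isomerise and join the isoprene units, 2 were higher in MeJA-1h, 1 in YE-1h and 2 in neither. Over all unigenes the shares were 6.51% in MeJA-1h and 10.2% in YE-1h. *GPPS2*, listed as a geranyl diphosphate synthase, had 614 RPKM in MeJA-1h and 36.6 RPKM in YE-1h, a 16.8-fold difference (interval 15.9 to 17.7). A second *GPPS2* unigene had 299 RPKM in MeJA-1h and 16.1 RPKM in YE-1h. *GGPPS1*, whose product is the precursor of all diterpenes, went the other way. It had 58.8 RPKM in MeJA-1h and 276 RPKM in YE-1h, and was 4.69-fold higher in YE-1h (interval 4.44 to 4.96). *IPPI*, the isomerase of the isoprene units, had 791 RPKM in MeJA-1h and 611 RPKM in YE-1h. *FPPS*, on the branch to sesquiterpenes and triterpenes, had 399 RPKM in MeJA-1h and 406 RPKM in YE-1h, a log2 ratio of -0.03 that turned to 0.11 with TMM scaling. Neither of these enzymes was called.

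The cyclases were split by gene. *KSL1*, which closes the ring system of miltiradiene, had 51.8 RPKM in MeJA-1h and 218 RPKM in YE-1h and was 4.21-fold higher in YE-1h (interval 4.01 to 4.44). Its second unigene had 25.3 RPKM in MeJA-1h and 134 RPKM in YE-1h. *CPS1*, which makes the copalyl diphosphate used by *KSL1*, differed between its 2 unigenes. SmiContig26967 had 461 RPKM in MeJA-1h and 556 RPKM in YE-1h and was not called, while SmiContig19468 had 154 RPKM in MeJA-1h and 473 RPKM in YE-1h, a log2 ratio of -1.62. Other copalyl diphosphate synthases were less abundant, and most were higher in MeJA-1h. *CPS4* had 22.2 RPKM in MeJA-1h and 4.62 RPKM in YE-1h, a log2 ratio of 2.26. The most abundant *CPS2* unigene had 12.5 RPKM in MeJA-1h and 5.43 RPKM in YE-1h. That of *CPS3* rested on 32 reads in MeJA-1h and 4 in YE-1h. *CPS5* went with *KSL1*, at 7.56 RPKM in MeJA-1h and 21.3 RPKM in YE-1h, and both of its unigenes were called.

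*CYP76AH1* and *CYP76AH3* encode the P450s that oxidise miltiradiene. All 6 of their unigenes were higher in YE-1h, with log2 ratios between -1.28 and -1.17. The most abundant *CYP76AH1* unigene had 141 RPKM in MeJA-1h and 321 RPKM in YE-1h, and that of *CYP76AH3* had 117 RPKM in MeJA-1h and 283 RPKM in YE-1h. With an assumed coefficient of variation of 0.2 between libraries the tanshinone list kept 5 calls higher in MeJA-1h and 10 higher in YE-1h, and with 0.4 it kept 2 and 0.

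The study measured several of these transcripts by qRT-PCR, whose values were not analysed here. The unigene sequences were not used here, so the designed primers are shown, in lower case from 5′ to 3′, for tanshinone genes that were higher in YE-1h and phenolic acid genes that were higher in MeJA-1h. Whether a primer matches the unigene described was not tested.
KSL1 forward: gtgtgacccttctgctagca
KSL1 reverse: tgcattgtcttgggaagatg
GGPPS1 forward: gctgtgctcgcaggggatg
GGPPS1 reverse: atcgccggtgcagttcagg
PAL1 forward: tacctcgtcgccctatgccaag
PAL1 reverse: attgacgcccattgtgagagtt
CYP98A14 forward: caggatttgatttgggcggacta
CYP98A14 reverse: aaccttttcccaaataccagcct

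**Figure D2:**
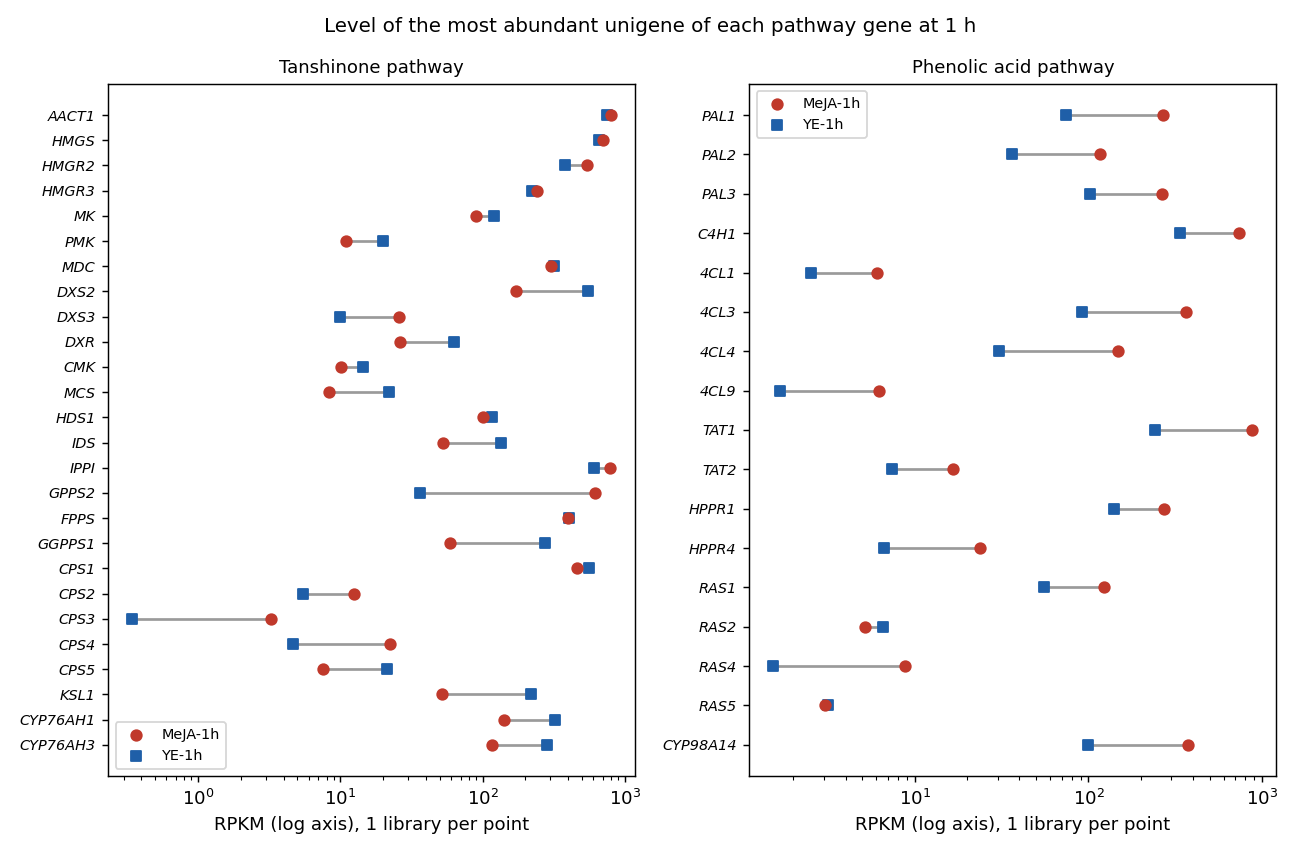
RPKM on a log axis of the most abundant unigene of each tanshinone gene (left) and phenolic acid gene (right), with MeJA-1h as red circles and YE-1h as blue squares, 1 library each and no error bar. The red circle lies far right of the square for *GPPS2* and most phenolic acid genes, and left of it for *DXS2*, *GGPPS1* and *KSL1*.

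Phenolic acid genes were higher in MeJA-1h at nearly every step. Of the 37 unigenes listed 35 were over the minimum, of which 30 (85.7%) were called higher in MeJA-1h, 0 higher in YE-1h and 5 in neither. Over all unigenes the shares were 6.51% in MeJA-1h and 10.2% in YE-1h. The median log2 ratio of the list was 1.68, which lay 1.83 above that of all unigenes. Of the 37 listed 35 exceeded 2-fold over the control in at least 1 elicited library, and the same limit holds for this list. Summed by name, 14 of 17 names were higher in MeJA-1h.

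The enzymes that open the phenylalanine branch were the most uniform. Of 19 unigenes of *PAL*, *C4H* and *4CL* 18 were higher in MeJA-1h, beside 6.51% of all unigenes. *PAL1*, a phenylalanine ammonia-lyase, had 270 RPKM in MeJA-1h and 73.9 RPKM in YE-1h, a log2 ratio of 1.87 (interval 1.81 to 1.92), and all 6 of its unigenes were called. *PAL2* had 116 RPKM in MeJA-1h and 36.1 RPKM in YE-1h, while *PAL3* had 264 RPKM in MeJA-1h and 103 RPKM in YE-1h. *C4H1*, the cinnamate hydroxylase and itself a P450, had 738 RPKM in MeJA-1h and 337 RPKM in YE-1h, a log2 ratio of 1.13. The 4-coumarate ligases activate the acid with coenzyme A. *4CL3* had 364 RPKM in MeJA-1h and 91.2 RPKM in YE-1h, and *4CL4* had 149 RPKM in MeJA-1h and 30.7 RPKM in YE-1h. The rare forms *4CL9* and *4CL1* had log2 ratios of 1.90 and 1.25, but *4CL1*, at 6.03 RPKM in MeJA-1h and 2.55 RPKM in YE-1h, lost its call when 1 RPKM was added to both values.

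On the tyrosine branch *TAT1*, the tyrosine aminotransferase, had 877 RPKM in MeJA-1h and 242 RPKM in YE-1h, a 3.62-fold difference (interval 3.53 to 3.71). *HPPR1*, the reductase that follows it, had 271 RPKM in MeJA-1h and 140 RPKM in YE-1h. Its log2 ratio of 0.95 missed the 2-fold limit, and became 1.08, past it, with TMM scaling. The less abundant *HPPR4* had 23.8 RPKM in MeJA-1h and 6.67 RPKM in YE-1h and was called. Unigenes named *TAT2* were uneven, with log2 ratios between -0.26 and 3.62. At the join of the branches, *RAS1*, a rosmarinic acid synthase, had 122 RPKM in MeJA-1h and 55.1 RPKM in YE-1h, and all 4 of its unigenes were called. *CYP98A14*, the P450 that adds the last hydroxyl groups, had 375 RPKM in MeJA-1h and 99.2 RPKM in YE-1h. Among rare synthases *RAS4* had 8.76 RPKM in MeJA-1h and 1.54 RPKM in YE-1h. *RAS2* was not called, with 5.15 RPKM in MeJA-1h and 6.58 RPKM in YE-1h. The compared *RAS5* unigene had 37 reads in MeJA-1h and 45 in YE-1h, and its log2 ratio of -0.06 became 0.07 with TMM scaling. With an assumed coefficient of variation of 0.2 there were 19 calls in the list, and with 0.4 there were 0.

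Upstream of both branches, the shikimate pathway supplies the aromatic amino acids. Its 9 unigenes come from the part of the study's annotation of responding genes that was at hand, so their number is not that of the pathway. Of these, 7 were higher in MeJA-1h and 0 in YE-1h, beside 6.51% and 10.2% of all unigenes. The chorismate synthase annotated *EMB1144* had 272 RPKM in MeJA-1h and 110 RPKM in YE-1h. The shikimate kinase *SK1* had 9.38 RPKM in MeJA-1h and 2.28 RPKM in YE-1h in its most abundant unigene, and all 6 of its unigenes were called. Chorismate mutases were not called, with 155 RPKM in MeJA-1h and 84.0 RPKM in YE-1h for *CM1* and 24.0 RPKM in MeJA-1h and 13.6 RPKM in YE-1h for *CM2*. With TMM scaling the log2 ratio of *CM1* was 1.01 and it was called.

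Triterpene genes came from the same part of the annotation, and 3 of the 5 unigenes carry the name AT1G66960. None of the 5 was called, beside 16.7% of all unigenes, and nothing is read from so few. *SQE3*, a squalene epoxidase, had 196 RPKM in MeJA-1h and 258 RPKM in YE-1h. *CAMS1*, annotated as a camelliol C synthase, had 104 RPKM in MeJA-1h and 120 RPKM in YE-1h. A unigene annotated AT1G66960, a relative of the oxidosqualene cyclases, had 23.5 RPKM in MeJA-1h and 21.5 RPKM in YE-1h. Their log2 ratios were -0.39, -0.21 and 0.13 in this order.

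**Figure D3:**
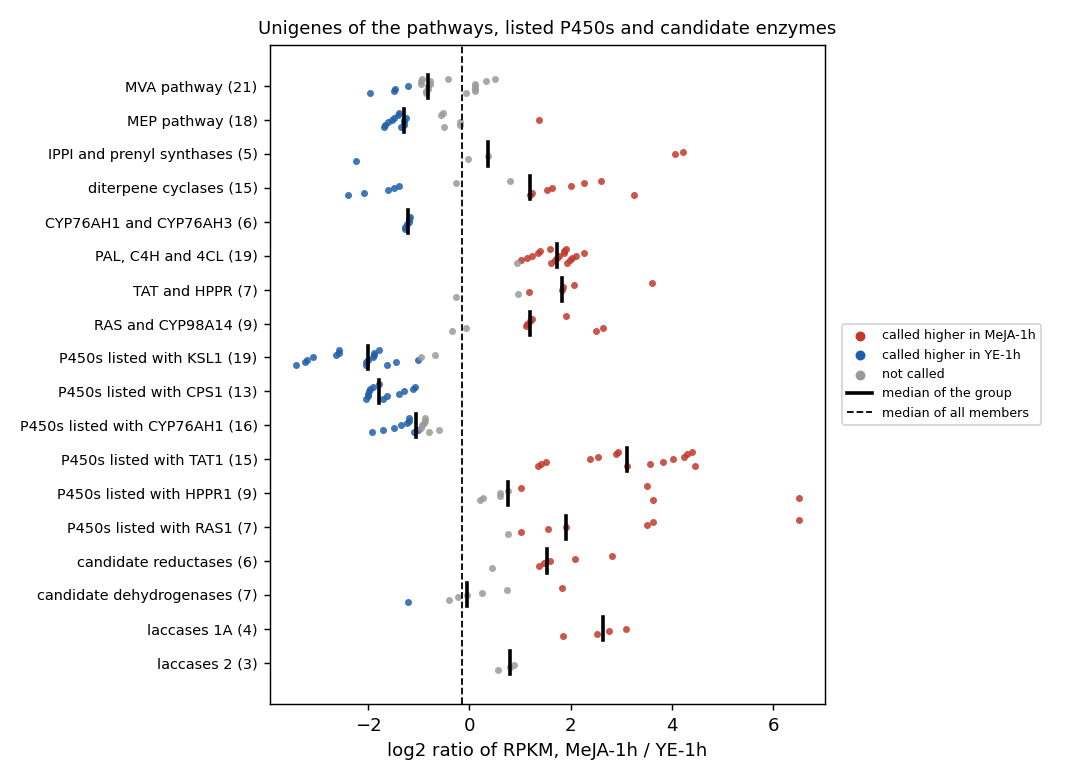
Log2 ratio of RPKM in MeJA-1h to YE-1h for each unigene over the minimum, by pathway step, by the gene with which a P450 was listed, and by class of candidate enzyme, with the number of unigenes in parentheses. Red points were called higher in MeJA-1h, blue higher in YE-1h and grey in neither, short bars are group medians and the dashed line is the median of all unigenes, -0.15. P450s listed with *KSL1*, *CPS1* and *CYP76AH1* lie left of the line and those listed with *TAT1*, *HPPR1* and *RAS1* right of it.

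Cytochrome P450s are oxygenases of many plant pathways. The study listed 45 P450 unigenes for their co-expression with tanshinone genes and 26 for their co-expression with phenolic acid genes. Of the 45 with the tanshinone genes, 36 were higher in YE-1h, 0 in MeJA-1h and 9 in neither, with a median log2 ratio of -1.62. Of the 26 with the phenolic acid genes, 21 were higher in MeJA-1h, 0 in YE-1h and 5 in neither, with a median of 2.72. Over all unigenes 10.2% were higher in YE-1h and 6.51% in MeJA-1h. The tanshinone P450 list also holds c21531_Smj-6h_g1_i1, a *CYP76AH1* unigene of the pathway list, so these lists overlap. Co-expression was measured by the study over libraries that include both of these, so the choice of the lists fixes much of this direction and nothing is read from it. Each P450 was listed for following a pathway gene over these libraries, so the size of its ratio is tied to that choice too. The counts by co-expressed gene below are therefore descriptions only.

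Of 19 P450s listed with *KSL1* 17 were called, of 13 listed with *CPS1* 13, and of 16 listed with *CYP76AH1* 9. All were higher in YE-1h, beside 10.2% of all unigenes. The largest difference was in SmiContig25546, annotated CYP707A4 after an *Arabidopsis* abscisic acid hydroxylase, with 5 reads in MeJA-1h and 70 in YE-1h. SmiContig30809, annotated CYP706A6, had 0.972 RPKM in MeJA-1h and 9.28 RPKM in YE-1h. Both were rare. A unigene annotated CYP93D1 (c26934_Sye-1h_g1_i1) had 0 reads in MeJA-1h and 31 in YE-1h. With the empty library set to 3 reads it was 8.47-fold higher in YE-1h, with a lower interval limit of 6.67-fold. Abundant P450s differed less. Among those listed with *CPS1*, SmiContig23197, annotated CYP71B37, had 86.4 RPKM in MeJA-1h and 356 RPKM in YE-1h. A further CYP71B37 unigene, c25083_Sye-1h_g1_i1, had 89.1 RPKM in MeJA-1h and 358 RPKM in YE-1h. All 4 unigenes of this annotation had log2 ratios between -2.04 and -1.96. Among those listed with *CYP76AH1*, SmiContig20596, annotated CYP714A1 after a gibberellin-modifying enzyme of *Arabidopsis*, had 3.84 RPKM in MeJA-1h and 14.6 RPKM in YE-1h. SmiContig16147, annotated CYP71B26, had 8.64 RPKM in MeJA-1h and 28.3 RPKM in YE-1h.

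P450s listed with *TAT1* had a median log2 ratio of 3.12, and all 15 were higher in MeJA-1h, beside 6.51% of all unigenes. The 4 unigenes annotated CYP72A10 had 99.9 to 147 RPKM in MeJA-1h and 6.01 to 7.45 RPKM in YE-1h. The 2 with the largest ratios among them were c16024_Smj-1h_g1_i1, 22.1-fold higher in MeJA-1h (interval 19.2 to 25.7), and c17493_Smj-0h_g1_i1, 21.0-fold higher (interval 18.4 to 24.2). A pair annotated CYP716A2 had no read in YE-1h. With the empty library set to 3 reads, c32889_Smj-1h_g1_i1, which had 36 reads in MeJA-1h, was 14.2-fold higher in MeJA-1h. Its lower interval limit was 10.99-fold. For c6063_Smj-6h_g1_i1, with 30 reads in MeJA-1h, the ratio was 11.9-fold and the lower interval limit 9.06-fold.

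Of 9 P450s listed with *HPPR1* 4 were called, and of 7 listed with *RAS1* 6, all higher in MeJA-1h, beside 6.51% of all unigenes. A unigene annotated CYP79B3 (c21609_Smj-1h_g1_i1) had 77 reads in MeJA-1h and 1 in YE-1h, a log2 ratio of 6.52 (interval 3.99 to 11.8). In c18925_Smj-6h_g1_i2, annotated CYP81D1, the level was 54.3 RPKM in MeJA-1h and 4.41 RPKM in YE-1h. The untreated control had 20.7 RPKM of this unigene, between the values of the elicitors. The annotation CYP98A3, the *Arabidopsis* relative of *CYP98A14*, fell on a unigene with 384 RPKM in MeJA-1h and 102 RPKM in YE-1h.

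Some annotations occur in both P450 lists, with opposite signs that follow from how the lists were chosen. CYP72A10 named 4 unigenes that were higher in MeJA-1h and 1, SmiContig30503, that had 4.96 RPKM in MeJA-1h and 45.7 RPKM in YE-1h. The 5 unigenes annotated CYP72A15 or CYP72A10 in the phenolic acid list were all higher in MeJA-1h, and 7 of the 8 of the CYP72A subfamily in the tanshinone list were higher in YE-1h. CYP716A1 likewise named 2 unigenes called higher in MeJA-1h and 1 called higher in YE-1h. With an assumed coefficient of variation of 0.2 the tanshinone P450s kept 22 calls, and with 0.4 they kept 0 and the phenolic acid P450s 6.

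The study proposed 20 further unigenes as downstream enzymes, in classes found by likeness of sequence to a ginger dehydrogenase, an *Artemisia* reductase and fungal laccases. Of these 10 (50%) were higher in MeJA-1h, 1 (5%) in YE-1h and 9 in neither, beside 6.51% and 10.2% of all unigenes. Of the 20 candidates 18 exceeded 2-fold over the control in at least 1 elicited library. The counts are therefore not taken as independent evidence of a direction. Of 6 reductases 5 were higher in MeJA-1h. SmiContig6622 had 411 RPKM in MeJA-1h and 58.4 RPKM in YE-1h, a log2 ratio of 2.81, and SmiContig32802, which was not called, had 233 RPKM in MeJA-1h and 171 RPKM in YE-1h. All 4 laccases of class 1A, copper oxidases that couple phenolics, were higher in MeJA-1h. The largest ratio was 8.53-fold (interval 8.09 to 9.02) in c22112_Smj-6h_g1_i1, at 333 RPKM in MeJA-1h and 39.0 RPKM in YE-1h. SmiContig4158 had the smallest, with 82.3 RPKM in MeJA-1h and 22.8 RPKM in YE-1h, and 62.9 RPKM in the control. None of 3 laccases of class 2 was called, with log2 ratios between 0.58 and 0.87, although SmiContig6627 passed 2-fold with TMM scaling, at 1.00. Dehydrogenases did not lean to either library. Of 7, SmiContig32840 was higher in MeJA-1h, with 106 RPKM against 30.0 RPKM in YE-1h, and SmiContig20215 was higher in YE-1h, with 8.04 RPKM in MeJA-1h and 18.6 RPKM in YE-1h. Their median log2 ratio of -0.04 became 0.09 with TMM scaling. The study also described the reductases and dehydrogenases as raised over the control in these libraries. With an assumed coefficient of variation of 0.4 there were 0 calls among the 20.

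The listed transcription factors are given by family. Of 375 listed TF unigenes 334 were over the minimum, of which 110 were higher in MeJA-1h, 96 higher in YE-1h and 128 in neither, with a median log2 ratio of 0.01. These TFs were listed by the study for a rise in at least 1 of its elicited libraries. The shares of 32.9% and 28.7% thus stand beside 6.51% and 10.2% over all unigenes without being evidence on TFs as a class. The same limit holds for the counts of each family below. With an assumed coefficient of variation of 0.2 there were 81 calls higher in MeJA-1h and 62 higher in YE-1h, and with 0.4 there were 14 and 8.

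All 4 Tify unigenes, the family of the JAZ repressors, were called higher in MeJA-1h. The most abundant, c14867_Smj-0h_g1_i1, had 1475 RPKM in MeJA-1h and 68.6 RPKM in YE-1h, a 21.5-fold difference (interval 20.2 to 22.9). SmiContig11926 had 264 RPKM in MeJA-1h and 6.77 RPKM in YE-1h, SmiContig12974 had 151 RPKM in MeJA-1h and 5.98 RPKM in YE-1h, and SmiContig7563 had 143 RPKM in MeJA-1h and 7.16 RPKM in YE-1h. The ratios of the 4 lay between 20.0-fold and 39.0-fold, and all 4 calls held with an assumed coefficient of variation of 0.4. Further genes come from the part that was at hand of the tables in which the study gave genes induced by an elicitor, so their numbers are partial and were selected for a response. Beside 6.51% of all unigenes, both unigenes annotated *MYC2*, the bHLH activator that JAZ proteins bind, were higher in MeJA-1h. The more abundant had 69.0 RPKM in MeJA-1h and 18.4 RPKM in YE-1h. Both are also in the TF list and are counted there, so they are no separate observation. *LOX5*, a lipoxygenase that oxidises fatty acids, had 341 RPKM in MeJA-1h and 125 RPKM in YE-1h, and all 5 of its unigenes were called.

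Among the listed families bHLH held the most unigenes higher in MeJA-1h. Of 50 compared, 36 (72%) were higher in MeJA-1h and 5 (10%) in YE-1h, beside 6.51% and 10.2% of all unigenes. The median log2 ratio was 2.07. In c21928_Smj-1h_g1_i2 there were 505 reads in MeJA-1h and 1 in YE-1h, a log2 ratio of 9.23 with an interval from 6.74 to 14.5. At the other end SmiContig30636 had 1.18 RPKM in MeJA-1h and 13.1 RPKM in YE-1h, a log2 ratio of -3.47. The family was therefore not uniform.

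Of 59 listed WRKY unigenes 33 (55.9%) were higher in YE-1h and 7 (11.9%) in MeJA-1h, beside 10.2% and 6.51% of all unigenes. The median log2 ratio was -1.14. As the list was chosen for a rise, no lean of the WRKY family is read from these counts. SmiContig31623 had 5 reads in MeJA-1h and 532 in YE-1h, a log2 ratio of -6.49 (interval -8.12 to -5.26). On the other side c16163_Smj-1h_g1_i1 had 68.9 RPKM in MeJA-1h and 13.5 RPKM in YE-1h, a log2 ratio of 2.35. Of 13 listed heat shock factors (HSF) compared, 7 (53.8%) were higher in YE-1h and 0 in MeJA-1h. All 13 had ratios below 1, also with TMM scaling. SmiContig27343 had 1.98 RPKM in MeJA-1h and 14.7 RPKM in YE-1h. The HSF with the ratio nearest to 1, c22054_Sye-1h_g2_i1, had 28.2 RPKM in MeJA-1h and 34.7 RPKM in YE-1h and was not called.

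AP2-EREBP factors, the family of the ethylene response factors, were split widely. Of 28, 14 (50%) were higher in MeJA-1h and 8 (28.6%) in YE-1h, beside 6.51% and 10.2% of all unigenes. In c18443_Smj-1h_g1_i1 1736 reads were counted in MeJA-1h and 2 in YE-1h, a log2 ratio of 10.01 (interval 8.15 to 13.1), the largest ratio of all 45009 unigenes. In c1602_Sye-1h_g1_i1 there were 3 reads in MeJA-1h and 121 in YE-1h, a log2 ratio of -5.09 (interval -7.39 to -3.51). Ethylene response factors were also named in the partial tables of induced genes, apart from this family list, which holds 8 of 15 unigenes annotated *ERF110* and 1 of 2 annotated *ERF-1*. Of the 15 *ERF110* unigenes 12 were higher in MeJA-1h, beside 6.51% of all unigenes, although the most abundant was not called, at 13.5 RPKM in MeJA-1h and 8.68 RPKM in YE-1h. Both unigenes annotated *ERF-1* were in neither, with the more abundant at 78.5 RPKM in MeJA-1h and 98.5 RPKM in YE-1h.

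**Figure D4:**
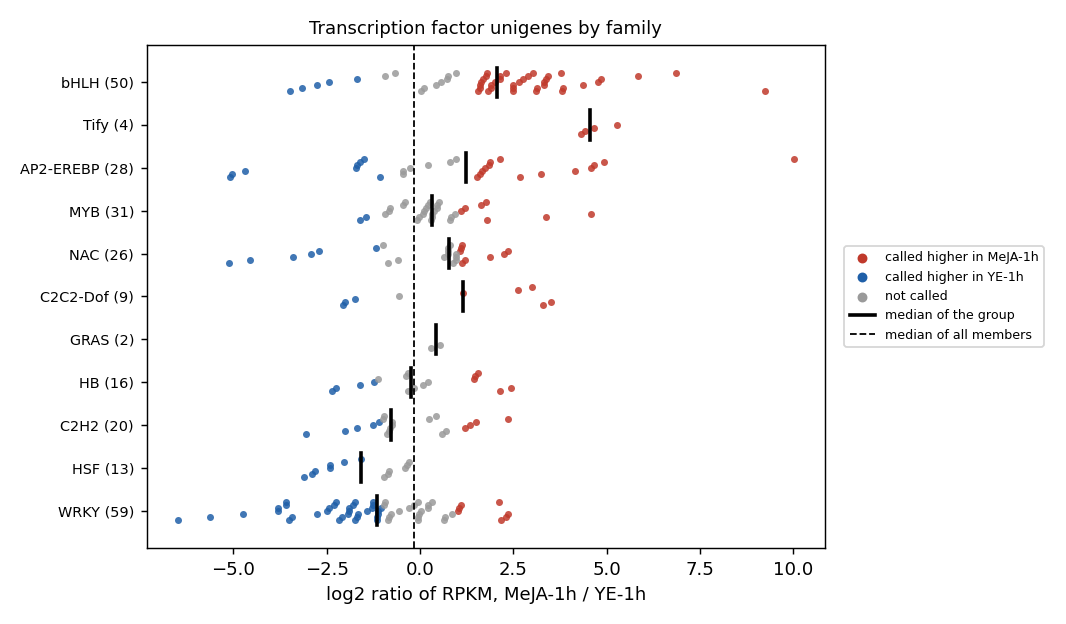
Log2 ratio of RPKM in MeJA-1h to YE-1h for TF unigenes over the minimum, by family, with the number of unigenes in parentheses. Red points were called higher in MeJA-1h, blue higher in YE-1h and grey in neither, short bars are family medians and the dashed line is the median of all unigenes. The bHLH median is 2.07, the Tify median 4.54, the HSF median -1.57 and the WRKY median -1.14.

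Other large families held calls in both directions, beside 6.51% of all unigenes higher in MeJA-1h and 10.2% in YE-1h. Of 31 MYB unigenes 7 (22.6%) were higher in MeJA-1h, 2 (6.45%) in YE-1h and 22 in neither. SmiContig1859, a MYB, had 381 RPKM in MeJA-1h and 36.8 RPKM in YE-1h, while SmiContig10176 had 5.44 RPKM in MeJA-1h and 16.6 RPKM in YE-1h. Of 26 NAC unigenes 8 (30.8%) were higher in MeJA-1h and 6 (23.1%) in YE-1h. The NAC unigene c22275_Sye-1h_g1_i3 had 0.660 RPKM in MeJA-1h and 23.0 RPKM in YE-1h, a 34.8-fold difference (interval 19.3 to 70.2), and SmiContig4335 had 42.1 RPKM in MeJA-1h and 8.26 RPKM in YE-1h. NAC ratios therefore reached further on the side of YE-1h.

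Homeobox (HB) factors had 5 unigenes (31.25%) higher in MeJA-1h and 4 (25%) in YE-1h of 16. The shares over all unigenes, 6.51% and 10.2%, stand beside each family given here. SmiContig19635 had 121 RPKM in MeJA-1h and 22.4 RPKM in YE-1h, and SmiContig29040 had 3.43 RPKM in MeJA-1h and 17.6 RPKM in YE-1h. Of 20 C2H2 zinc finger unigenes 4 were higher in MeJA-1h and 5 in YE-1h, and among those with at least 100 reads SmiContig14300, with 107 reads in MeJA-1h and 45 in YE-1h, and c23880_Sye-1h_g2_i1, with 66 in MeJA-1h and 188 in YE-1h, had the largest ratios in their directions. Dof factors (C2C2-Dof) had 5 higher in MeJA-1h and 3 in YE-1h of 9. SmiContig27087 had 43.1 RPKM in MeJA-1h and 3.82 RPKM in YE-1h, and c24474_Sye-1h_g2_i7 had 3.53 RPKM in MeJA-1h and 14.7 RPKM in YE-1h. Neither of 2 GRAS unigenes was called. The more abundant, SmiContig9465, had 440 RPKM in MeJA-1h and 357 RPKM in YE-1h, and c22609_Smj-1h_g2_i2 had 6.02 RPKM in MeJA-1h and 4.11 RPKM in YE-1h.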

How the data were processed

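RNA of 1 MeJA-1h and 1 YE-1h library of *S. miltiorrhiza* hairy roots was sequenced by the authors, who assembled unigenes with Trinity and no genome. Estimated counts of reads per unigene were deposited by the authors as whole numbers, without normalization, and the counting program is not given in the sources used here. They appear to have lost their decimals, since RPKM implied at least 0.1 read more than the count in 50 of 61 low counts of abundant unigenes, and over 0.1 read less in 0. The test had been planned for plain counts and was kept. RPKM values were deposited by the authors, computed from reads, unigene length and library total.

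Ratios were taken from RPKM, with a library at 0 reads set to 3 reads. The binomTest function of edgeR 4.0.16 (R 4.3.3) was applied to the reads, and p-values were adjusted by Benjamini-Hochberg over all 55580 unigenes that held a read in MeJA-1h or YE-1h. A call needed an FDR under 0.01 and a ratio over 2 or under 0.5, and was counted where either library had 30 reads. Intervals of 95% are exact Clopper-Pearson bounds on the share of reads in MeJA-1h. On simulated data for MeJA-1h against YE-1h the test recovered 48 of 50 unigenes at a fold of 0.25 and 45 of 50 at 0.333. It recovered 46 of 50 at a fold of 3 and 50 of 50 at a fold of 4. The simulated reads held counting error only, so this does not check the calls against a spread between cultures.

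Gene names come from the study's lists. A reference table of 42046 genes matched 0 unigene names. Members, lists and alternatives were chosen with earlier results of these data known. The text names the most abundant unigene of each pathway gene, the ends of each candidate class and of each TF family with at least 10 unigenes (at least 100 reads), all Tify and GRAS, and per co-expressed gene the 2 P450s of largest ratio, with any at 0 reads. Other unigenes named, such as further unigenes of a gene and those that carry an annotation of both P450 lists, were chosen after their values were seen. Alternatives were TMM, DESeq2 1.42.0 size factors, an FDR of 0.05, the ratio alone, edgeR's exact test at assumed coefficients of variation of 0.2 or 0.4, a pseudocount of 1 RPKM, a minimum of 1 or 100 reads, and reads summed by name. Python 3.11.15 with pandas 2.3.3 and scipy 1.17.1 was used.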

Additional observations from a re-analysis of the deposited data

How the results depend on the processing

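Depth limits single unigenes at under about 30 reads. A library at 1 read or none leaves a wide or open interval whatever the other library holds. An example is c21928_Smj-1h_g1_i2, with 505 reads in MeJA-1h and 1 in YE-1h (interval 6.74 to 14.5). No paired analysis was possible because each elicitor has 1 library. TMM scaling moved the median log2 ratio of all unigenes to -0.0205 and DESeq2 size factors moved it to -0.0107, while the counts of calls stayed within 1.5 times. With the size factors 3480 unigenes were higher in MeJA-1h and 3613 in YE-1h. At an assumed coefficient of variation of 0.2 in the exact test, 1534 unigenes were higher in MeJA-1h and 1533 in YE-1h. The tanshinone list then had 5 higher in MeJA-1h and 10 in YE-1h, the phenolic acid list 19 higher in MeJA-1h, the tanshinone P450s 22 higher in YE-1h and the TFs 62 higher in YE-1h. With 0.4, 147 unigenes were higher in MeJA-1h and 53 in YE-1h. The tanshinone list then had 2 higher in MeJA-1h and 0 in YE-1h, and the phenolic acid list had 0 higher in MeJA-1h. For the P450s there were 0 higher in YE-1h with tanshinone genes and 6 higher in MeJA-1h with phenolic acid genes. Of the TFs 14 were higher in MeJA-1h, among them 6 bHLH, and 8 in YE-1h, among them 3 WRKY. These tests demand more than counting error by construction. A minimum of 100 reads left 2821 unigenes higher in YE-1h and 5 tanshinone unigenes higher in MeJA-1h, since fewer unigenes were compared. Summed by name, the tanshinone list had 5 names higher in MeJA-1h and 9 in YE-1h, and the phenolic acid list 14 higher in MeJA-1h. An FDR of 0.05, the ratio alone, the pseudocount and a minimum of 1 read moved none of these counts by over 1.5 times. Of 103 unigenes named by rule, 3 gained a call with TMM and the same number with DESeq2 size factors, 1 lost it with the pseudocount, and 16 and 58 lost it with a coefficient of variation of 0.2 and 0.4.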

Other observations

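Unigenes that are in no list also reached large differences, which exceeded those of listed unigenes on the side of YE-1h but not of MeJA-1h. SmiContig7525 had 468 reads in MeJA-1h and 1 in YE-1h, a log2 ratio of 8.53 (interval 6.63 to 14.4). The next, c21928_Smj-1h_g1_i1, had 289 reads in MeJA-1h and 1 in YE-1h. By its name it belongs to the same assembled component as the bHLH unigene with the largest ratio of that family, which the TF list does hold. On the side of YE-1h, c23972_Sye-1h_g1_i1 had 6 reads in MeJA-1h and 1330 in YE-1h, a log2 ratio of -7.55 (interval -9.00 to -6.42), and c20963_Sye-1h_g1_i1 had 4 reads in MeJA-1h and 810 in YE-1h. No function is given to these unigenes here.

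Small TF families outside the naming rule also held large ratios, and are given here after their values were seen. Over all unigenes 6.51% were higher in MeJA-1h and 10.2% in YE-1h. Of 7 MADS unigenes 4 were higher in MeJA-1h, all with log2 ratios between 3.10 and 3.60, from levels of 8.41 to 16.5 RPKM in MeJA-1h and 0.982 to 1.36 RPKM in YE-1h. The only LFY unigene had 34 reads in MeJA-1h and 4 in YE-1h. Both LIM unigenes were higher in YE-1h, on 3 reads each in MeJA-1h, with log2 ratios of -3.47 (interval -5.79 to -1.80) and -3.09 (interval -5.64 to -1.63), and all 3 C2C2-GATA unigenes were too, between -1.30 and -1.17.

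The library in whose assembly a unigene arose moved with the calls. Of the 3990 compared unigenes that carry the name of the MeJA-1h assembly, 16.3% were higher in MeJA-1h and 3.56% in YE-1h. Of the 2985 that carry the name of the YE-1h assembly, 2.35% were higher in MeJA-1h and 21.2% in YE-1h. For the 28945 unigenes with no library name the shares were 5.68% in MeJA-1h and 10.8% in YE-1h. A transcript abundant in a library is more readily assembled from it, and the part of this in the counts was not tested.

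Some names conflict between the lists. SmiContig4954 and SmiContig22538 are *CYP76AH1* and *CYP76AH3* in the pathway list and MYB-related factors in the TF list. They make up both calls of the MYB-related family in YE-1h, with log2 ratios of -1.17 and -1.20. The P450 list names a unigene CYP76C2 (c21531_Smj-6h_g1_i1) that is *CYP76AH1* in the pathway list, so its names are those of nearest relatives. The call of this unigene is counted in both lists. The median levels of CYP76C2, 117 RPKM in MeJA-1h and 272 RPKM in YE-1h, are also those of *CYP76AH3* in the pathway list.

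The untreated control was taken at 0 h and is set beside these values without a test. Of the 2930 unigenes higher in MeJA-1h, 2105 (71.8%) had a control level nearer to that of YE-1h on the log2 scale. Of the 4605 higher in YE-1h, 2312 (50.2%) had a control level nearer to that of MeJA-1h. With median-ratio size factors, chosen after seeing the data, the numbers were 2333 and 2777.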
